A study of Mus musculus with 21 samples.

Results

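The genes described here build the nuclear pore or carry cargo through it. They were chosen by symbol: every probe set annotated to a gene named Nup, Ipo or Xpo followed by a digit, to a Kpna or Kpnb gene, or to Ran, Tpr or Pom121. This gave 106 of the 45101 probe sets of the array, which belong to 40 genes. Of these, 91 probe sets of 38 genes passed the filter on dim signal and were tested among 12367 genes. Kpna7, an importin alpha known from oocytes and early embryos, had a signal of 0.7 to 26.3 over the arrays, and Nup210l, a relative of Nup210, had 2.5 to 13.9. Both lay below the filter and were not tested. Tpr, a basket protein, was not analysed here.

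The 21 Affymetrix Mouse Genome 430 2.0 arrays carried RNA from cerebellar tumour cells of mice, divided by sorting into those with and without CD15, a carbohydrate of the cell surface. The Math1-GFP tumours gave 4 CD15 positive and 5 CD15 negative arrays, and the conventional tumours gave 6 CD15 positive and 6 CD15 negative arrays. All are described as cells of Patched medulloblastomas. The descriptions call the Math1-GFP tumours conventional too, and the titles were followed. Patched is the receptor that restrains Hedgehog signalling, Math1, also called Atoh1, marks granule neuron precursors, in which it acts as a transcription factor, and GFP is a fluorescent reporter. The labels give no allele, age, treatment, or driver of a deletion for any of the 4 groups, and none of the 21 arrays is of unaffected cerebellum. Whether each array had an animal of its own is not stated either, so the p-values speak only of the spread from sample to sample, which may be technical. As bulk RNA was measured, fewer cells of a type and less RNA per cell cannot be told apart.

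The nuclear pore is a ring of nucleoporins set into the nuclear envelope. Its outer rings are made of the Y complex, its channel is lined with flexible nucleoporins that receptors bind, and basket and filaments extend to either side. Importin alpha adaptors recognise a nuclear localisation signal and bind Kpnb1, the importin beta that crosses the pore; exportins carry cargo outward, and the small GTPase Ran, loaded with GTP in the nucleus, releases import cargo and loads export cargo. In mitosis the pore comes apart, Ran and the importins then regulate spindle assembly, and part of the Y complex moves to kinetochores. In mouse embryonic stem cells Kpna2 is the abundant importin alpha, and the set of importin alphas changes as they turn into neurons.

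In conventional tumours 5 of the 38 tested members were higher in CD15 positive than in CD15 negative cells: the adaptor Kpna2, the Y complex subunits Nup37, Nup107 and Nup43, and Ran. None was lower. Of all 12367 genes in this contrast, 3.05% were called higher, 5.09% lower and 8.13% either way, at a limma adjusted p under 0.05. At an unadjusted p under 0.05 there were 9 of 38 members, against 22.2% of all genes. Promoters of the members that differed are shown to let their sequence be read beside the values; Nup43 was not among the 32 of 40 members in the RefSeq promoter table used (assembly GRCm38.p6), which gives 250 bases before and 50 bases after a gene's start. Capitals mark 3 motifs that are known from promoters of cell cycle genes, searched on both strands: the CCAAT box, the CHR element and the E2F core. The CHR element reads TTTGAA, or TTCAAA when it lies on the opposite strand. The E2F core reads TTCCCGC, or GCGGGAA when it lies on the opposite strand. No motif overlapped another in the sequences shown.

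The Kpna2 promoter (chr11:106999476-106999775, minus strand) held a TTCAAA and, close to the start, 2 CCAAT boxes.

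Kpna2: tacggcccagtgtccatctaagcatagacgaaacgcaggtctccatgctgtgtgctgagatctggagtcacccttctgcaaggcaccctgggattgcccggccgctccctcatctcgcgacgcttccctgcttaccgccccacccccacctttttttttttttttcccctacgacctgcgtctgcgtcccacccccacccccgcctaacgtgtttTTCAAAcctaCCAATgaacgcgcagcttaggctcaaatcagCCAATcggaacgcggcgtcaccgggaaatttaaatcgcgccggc

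The first listed Nup37 promoter (chr10:88146742-88147041, plus strand), shown here, held both orientations of the CHR letters and 1 CCAAT box. A second listed promoter of the gene (chr10:88146821-88147120) held the same motifs, farther before its start.

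Nup37: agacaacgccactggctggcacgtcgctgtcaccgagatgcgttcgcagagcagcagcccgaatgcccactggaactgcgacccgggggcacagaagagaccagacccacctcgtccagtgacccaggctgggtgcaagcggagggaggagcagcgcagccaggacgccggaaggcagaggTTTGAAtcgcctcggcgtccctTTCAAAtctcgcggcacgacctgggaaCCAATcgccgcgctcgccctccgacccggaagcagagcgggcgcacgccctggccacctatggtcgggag

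The Nup107 promoter (chr10:117792656-117792955, minus strand) held 2 copies of GCGGGAA, 1 on either side of the start.

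Nup107: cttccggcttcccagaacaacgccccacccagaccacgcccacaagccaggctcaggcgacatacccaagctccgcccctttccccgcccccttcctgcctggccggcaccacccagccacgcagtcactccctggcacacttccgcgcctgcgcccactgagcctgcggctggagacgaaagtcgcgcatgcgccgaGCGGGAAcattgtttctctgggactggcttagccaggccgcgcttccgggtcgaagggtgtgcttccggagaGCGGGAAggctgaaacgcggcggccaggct

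The Ran promoter (chr5:129019906-129020205, plus strand) held none of the 3 motifs.

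Ran: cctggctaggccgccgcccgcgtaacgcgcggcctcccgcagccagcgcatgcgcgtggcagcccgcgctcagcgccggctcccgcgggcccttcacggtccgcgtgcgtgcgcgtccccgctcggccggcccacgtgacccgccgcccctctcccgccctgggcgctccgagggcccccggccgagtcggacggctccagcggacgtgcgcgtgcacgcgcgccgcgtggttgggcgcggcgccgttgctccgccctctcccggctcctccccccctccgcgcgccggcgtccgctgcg

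Among the 32 members with a promoter, the first listed promoter held a CCAAT box in 53.1%, the CHR letters in 21.9% and the E2F core in 9.4%. Over all 27025 genes of the table these shares were 37.9%, 18.1% and 4.7%. A match of letters is a description and no binding was measured.

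Kpna2 differed most between the CD15 fractions. Values below are signal intensities as deposited, in which the trimmed mean of every array was 150.0. How they were scaled is not stated. Log2 differences are on the log2(signal + 32) scale. In conventional tumours the Kpna2 signal was 3244 at the lowest, 4264 at the median and 5673 at the highest in CD15 positive cells, against 1601, 2071 and 2896 in CD15 negative cells. All 6 CD15 positive arrays lay above all 6 CD15 negative arrays. The log2 difference was 0.97 ± 0.16 (SE; 95% interval 0.63 to 1.31; limma adjusted p = 0.0011). The difference between same-numbered arrays, which the numbers 2 to 6 in the titles pair, was 0.71 to 1.3 in the 5 pairs, with a median of 0.96.

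None of the 4 other importin alphas passed the test. Kpna1, Kpna3, Kpna4 and Kpna6 differed between the fractions by 0.00, 0.12, -0.07 and -0.13 on the log2 scale in conventional tumours, with limma adjusted p-values of 0.58 to 1.0. In Math1-GFP tumours these 4 differed by -0.04, -0.00, -0.07 and -0.06, with limma adjusted p-values of 0.92 to 1.0.

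**Figure D1:**
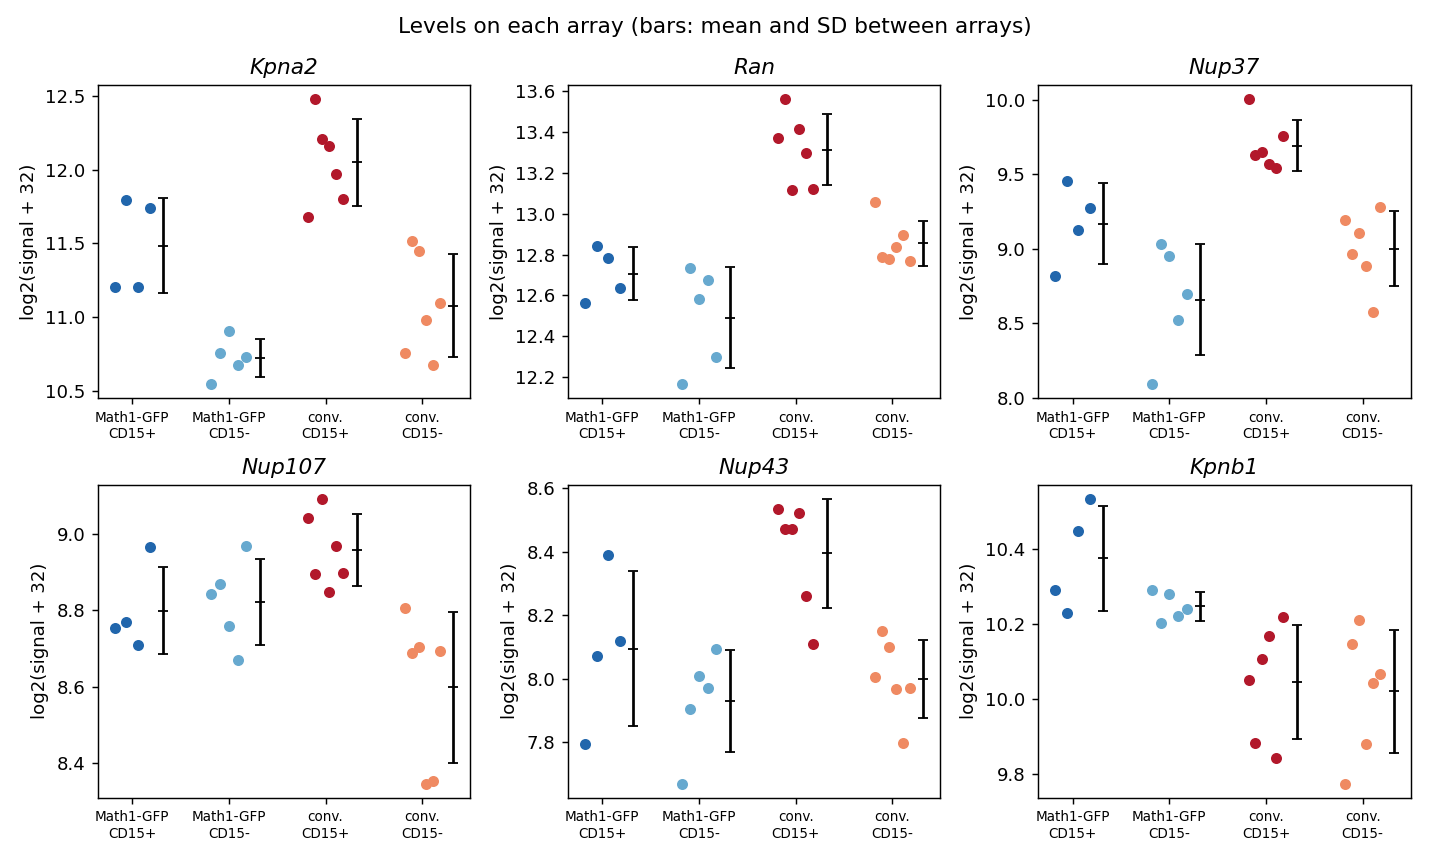
Level of Kpna2, Ran, Nup37, Nup107, Nup43 and Kpnb1 as log2(signal + 32) on each of the 21 arrays in the 4 groups, 1 panel for each gene with its own axis range; points are arrays, and bars give the mean and the SD between arrays. In conventional tumours the CD15 positive arrays lie above all CD15 negative ones for Kpna2, Ran, Nup37 and Nup107, while the Kpnb1 groups overlap.

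The 6 Y complex subunits among the members, part of the scaffold of the outer rings, all had a positive log2 difference in conventional tumours. It lay between 0.17 and 0.69 with a median of 0.33, and 3 of the 6 passed the test. Other subunits, such as Seh1l and Ahctf1, have symbols outside the rule and were counted with the 13 measured other pathway genes of the pore. None of those 13 passed in this contrast, and 4 had a negative difference. Nup37, a small subunit of the complex, had 711.8, 764.9 and 994.8 as lowest, median and highest signal in CD15 positive cells, against 350.0, 494.0 and 589.3 in CD15 negative cells. These groups did not overlap, and the log2 difference was 0.69 ± 0.15 (SE; limma adjusted p = 0.0083). It was 0.48 to 0.96 in the 5 numbered pairs.

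Nup107, which gives the complex its other name, had 429.2, 457.1 and 514.1 in CD15 positive and 293.1, 381.2 and 416.0 in CD15 negative cells of conventional tumours. The groups again did not overlap, with a log2 difference of 0.36 ± 0.10 (SE; limma adjusted p = 0.023). The Nup43 signal was 244.3, 322.6 and 339.2 in CD15 positive cells, against 190.7, 221.9 and 252.1 in CD15 negative cells. Here 1 CD15 positive array fell within the CD15 negative range, and the log2 difference was 0.40 ± 0.11 (SE; limma adjusted p = 0.028). Both calls lay near the threshold and were lost without some single arrays. The log2 difference without any 1 array stayed at 0.31 to 0.40 for Nup107 and 0.36 to 0.45 for Nup43. Over all genes, 377 higher and 629 lower calls became 204 and 402 without conventional CD15 negative array 5. Among the conventional arrays, the Nup107 call was lost without array 3 of the CD15 positive cells and without array 4 or 5 of the CD15 negative cells (limma adjusted p up to 0.066). It was also lost when these arrays were fitted alone (limma adjusted p = 0.064). The Nup43 call was lost without any 1 of arrays 1 to 4 of the CD15 positive cells and without array 4 or 5 of the CD15 negative cells (limma adjusted p up to 0.075). With the title number as a block over the numbered arrays, Nup43 had limma adjusted p = 0.062. Both genes were higher in CD15 positive cells in all 5 pairs, by 0.20 to 0.62 for Nup107 and 0.14 to 0.55 for Nup43.

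The remaining subunits among the members did not pass the test. Nup133 had 494.0, 592.5 and 628.2 in CD15 positive and 362.8, 471.1 and 584.9 in CD15 negative cells of conventional tumours, a log2 difference of 0.29 ± 0.10 (SE; limma adjusted p = 0.088). The groups overlapped, and without CD15 negative array 6, the brightest of its group, limma adjusted p was 0.033. Nup85 differed by 0.30 with groups that did not overlap (limma adjusted p = 0.077, and 0.042 without Math1-GFP CD15 negative array 2), and Nup160 by 0.17 (limma adjusted p = 0.36).

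The Ran signal in conventional tumours was 8858 at the lowest, 10297 at the median and 12051 at the highest in CD15 positive cells, against 6943, 7165 and 8489 in CD15 negative cells. The groups did not overlap, and the log2 difference was 0.46 ± 0.11 (SE; 95% interval 0.23 to 0.69; limma adjusted p = 0.012). After quantile normalization it was 0.20 (limma adjusted p = 0.22), so the call depends on the scaling. Of 5 Ran probe sets past the filter, the 4 with the suffix _x_at, whose probes can match other transcripts, differed by 0.44 to 0.53, and the other, 1460551_at, by 0.34 (limma adjusted p = 0.23 over every probe set). Ran has many near-identical copies in the genome, so the level of the gene itself is uncertain.

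Elsewhere in the pore no member passed the test in conventional tumours, though nearly all nucleoporins had the same sign. In all, 18 of 19 nucleoporins were higher in CD15 positive cells, with a median of 0.24, and the exception was the channel protein Nup54, at -0.37. Its signal was 455.2 and 372.6 in CD15 positive arrays 1 and 2 and 866.8 to 1024.9 in the other 4, against 876.5 to 1022.2 in the CD15 negative arrays. Without CD15 positive array 2 the difference was -0.19, its median over the 5 numbered pairs was -0.02, and the 4 other probe sets of Nup54 gave -0.12 to 0.05. Of the receptors and Ran 11 of 19 were higher, with a median of 0.02. Over the 12367 genes the median was -0.0169, and 47.3% had a positive difference. These counts use the brightest probe set of each gene. Taken singly, 67 of the 91 member probe sets were positive, and 17 of 29 members with several had them all on one side of 0. Dimmer probe sets of Nup133 (1441235_at, 1457542_at) gave -0.02 and -0.04, and 1456503_at of Nup214 gave -0.05.

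Nup93, a scaffold protein of the inner ring, had 544.2, 553.4 and 726.1 in CD15 positive and 302.7, 465.3 and 590.3 in CD15 negative cells of conventional tumours. The groups overlapped and the log2 difference was 0.36 ± 0.13 (SE; limma adjusted p = 0.09, and 0.042 without CD15 negative array 2). In the membrane ring, which anchors the pore, Pom121 differed by 0.20 ± 0.12 (SE; limma adjusted p = 0.33) and Nup210 by 0.28 ± 0.16 (SE; limma adjusted p = 0.33). The channel protein Nup98 differed by 0.25, the basket protein Nup50 by 0.22, and Nup88 of the cytoplasmic filaments by 0.15, none past the test.

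In the importin beta family and among the exportins no member was called either way in conventional tumours. Kpnb1, the importin beta to which Kpna2 binds, had 885.6, 1050 and 1160 in CD15 positive and 843.6, 1032 and 1153 in CD15 negative cells of conventional tumours. These ranges nearly coincide, and the log2 difference was 0.02 ± 0.09 (SE; limma adjusted p = 0.92). Xpo1, the exportin of proteins with a leucine-rich export signal, had 1352, 1508 and 1803 in CD15 positive and 1028, 1356 and 1656 in CD15 negative cells, with a log2 difference of 0.21 ± 0.10 (SE; limma adjusted p = 0.25). Ipo5, an importer of ribosomal proteins, differed by 0.35 ± 0.13 (SE; limma adjusted p = 0.1), Ipo9 by 0.17, and Ipo13, which carries cargo both ways, by -0.21 ± 0.12 (SE; limma adjusted p = 0.33). The 5 exportins had a median of -0.07, and Xpo6, an exporter of actin, was lower in CD15 positive cells in all 5 numbered pairs without passing the test.

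**Figure D2:**
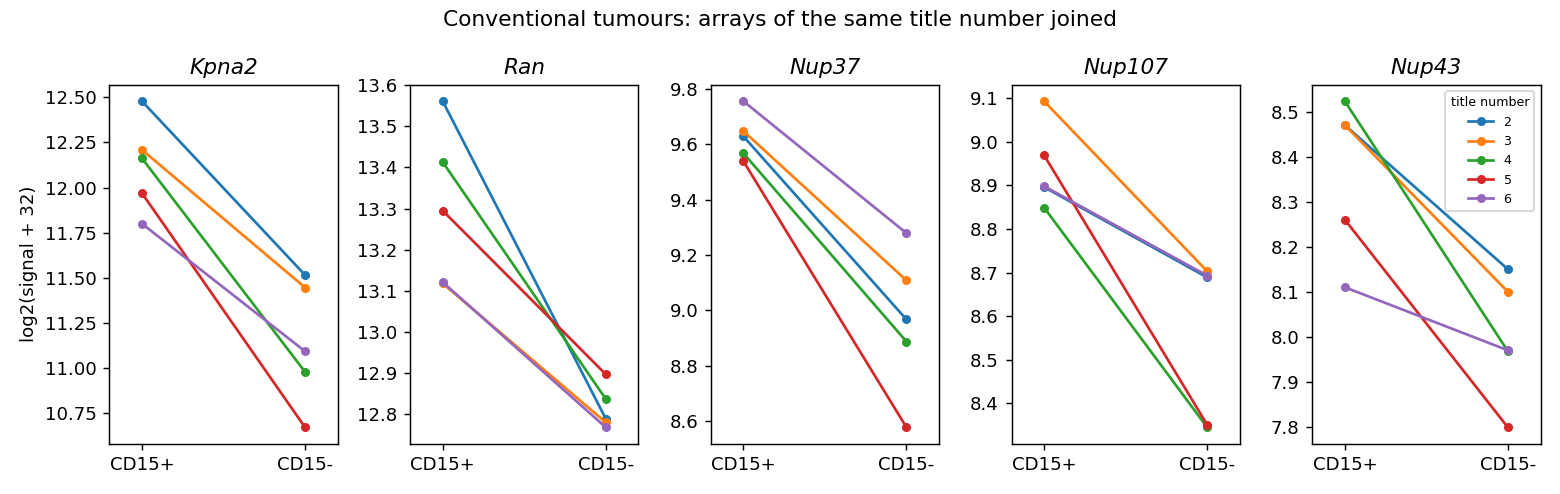
Level of Kpna2, Ran, Nup37, Nup107 and Nup43 as log2(signal + 32) in CD15 positive and CD15 negative cells of conventional tumours; each line joins the 2 arrays that share a title number. All 5 lines fall toward the CD15 negative cells in each of the panels.

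In the conventional titles CD15 is written with a space for arrays 2 to 5 and without one for array 6 and the unnumbered arrays, and the result was also split by this spelling. Among arrays 2 to 5 the log2 difference was 1.05 for Kpna2 (limma adjusted p = 0.023), 0.71 for Nup37 (0.021) and 0.52 for Ran (0.041), and 0.43 each for Nup107 (0.089) and Nup43 (0.076). Among the unnumbered arrays and array 6 these were 0.82, 0.64, 0.33, 0.22 and 0.33 for the same genes, all positive, with limma adjusted p-values of 0.58 to 0.84 at 2 against 2 arrays. None of the 12367 genes passed among those arrays.

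Genes of the cell cycle and of neurons moved with these fractions in conventional tumours. The G2 and M phase list had 22 measured genes, and 21 of them were called higher in CD15 positive cells, with a median of 0.82. Of 22 S phase genes 10 were called higher, with a median of 0.45. Of 14 neuronal differentiation genes 12 were called lower, with a median of -1.0. The summed signal of the G2 and M phase list was 33040 to 43000 in CD15 positive and 13590 to 27480 in CD15 negative cells, and that of the neuronal list 11460 to 18280 against 20270 to 38260. Of 11 measured microglia and macrophage markers none passed in this contrast, with all 11 differences positive and a median of 0.82, and their summed signal was 986.8 to 14820 in CD15 positive and 413.2 to 5024 in CD15 negative cells. All 8 mural cell and fibroblast markers had negative differences, with a median of -0.60 and none past the test. The list of granule neuron precursor markers had 9 of 10 differences negative, with a median of -0.27. Called lower were only Nhlh1, Neurod1 and Nhlh2, which are also factors of granule neuron differentiation. No other marker of the list passed, Atoh1, Pax6 and Barhl2 included. The summed signal of the whole list was 14170 to 19430 in CD15 positive and 19520 to 33920 in CD15 negative cells. The part of any of these in the pore and transport differences was not tested.

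In Math1-GFP tumours no member passed the test between the CD15 fractions (limma); 3 of 38 had an unadjusted p under 0.05, and 8.68% of all genes did. At the adjusted threshold 0.0404% of all genes passed, 0.0162% higher and 0.0243% lower. Of the 38 members 29 had a positive difference, with a median of 0.13. The median over all genes was 0.0048, and 50.9% of them had a positive difference. Taken singly, 60 of the 91 member probe sets were positive, with a median of 0.06 against -0.01 over all probe sets.

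Kpna2 again had the largest difference of the 38. Its signal was 2333, 3514, 2326 and 3382 in the CD15 positive arrays 1, 5, 7 and 9 of Math1-GFP tumours, against 1465, 1694, 1888, 1603 and 1669 in the CD15 negative arrays 2, 4, 6, 8 and 10. The groups did not overlap, and the log2 difference was 0.76 ± 0.19 (SE; 95% interval 0.37 to 1.16; limma adjusted p = 0.13). With the title number as a block over the numbered conventional arrays, limma adjusted p was 0.024, and with array weights 0.02. This block pairs no Math1-GFP array. Over all genes, 2 higher and 3 lower calls in Math1-GFP tumours became 72 and 101 with the block and 77 and 110 with array weights.

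Of the Y complex in Math1-GFP tumours, Nup37 had 420.0, 670.2, 527.7 and 587.3 in the CD15 positive arrays, against 241.2, 490.6, 463.4, 335.4 and 383.6 in the CD15 negative ones. Array 1 lay within the CD15 negative range, and the log2 difference was 0.51 ± 0.18 (SE; limma adjusted p = 0.33). Nup107 had 399.6, 404.3, 386.1 and 468.2 in CD15 positive arrays and 427.0, 436.0, 401.6, 375.3 and 469.4 in CD15 negative arrays, so that the groups overlapped fully, with a log2 difference of -0.02 ± 0.11 (SE; limma adjusted p = 0.98). Nup133 had 554.3, 690.9, 735.3 and 696.4 against 481.4, 540.7, 520.4, 513.3 and 563.7, a log2 difference of 0.33 ± 0.12 (SE; limma adjusted p = 0.35) with 1 CD15 positive array inside the other range. Nup43 differed by 0.16 ± 0.13 (SE; limma adjusted p = 0.78).

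Ran had 6021, 7312, 7022 and 6332 in the CD15 positive arrays of Math1-GFP tumours and 4566, 6780, 6104, 6510 and 5005 in the CD15 negative ones. The ranges overlapped, and the log2 difference was 0.21 ± 0.13 (SE; limma adjusted p = 0.69). Nup210, with 439.7, 477.7, 427.1 and 507.4 against 398.9, 413.3, 386.2, 332.7 and 369.8, did not overlap, yet its log2 difference of 0.26 ± 0.19 did not pass (SE; limma adjusted p = 0.76). Nup98 lay higher and Nup54 lower in every CD15 positive array of these tumours, by 0.25 and -0.34, and neither passed.

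Of the cell cycle lists, G2 and M phase had a median of 0.75 and 1 called gene of 22 in Math1-GFP tumours, S phase a median of 0.11 and 0 called, and the neuronal list a median of -0.67 and 0 called (limma). The summed signal of the S phase list was 31160 to 39560 in CD15 positive and 27620 to 39040 in CD15 negative cells. Astrocyte markers had a median of 1.06, with 7 of 8 positive and none past the test, and a summed signal of 1868 to 5010 in CD15 positive and 905.3 to 2218 in CD15 negative cells. Microglia and macrophage markers had a median of 0.46, with 10 of 11 positive and none past the test. Granule neuron precursor markers had a median of -0.43, with 8 of 10 negative and none past the test. The part of any of these in the member differences of Math1-GFP tumours was not tested.

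The 2 CD15 differences were set against each other as an interaction, Math1-GFP minus conventional. None of the 12367 genes passed (limma; 279 had an unadjusted p under 0.05, or 2.26%), so no member's difference was shown to depend on the tumour model. Nup107 was the 1 member with an unadjusted p under 0.05, at -0.38 ± 0.15 (SE; 95% interval -0.69 to -0.08; limma adjusted p = 1.0). For Kpna2 the interaction was -0.21, with a 95% interval of -0.73 to 0.31, and for Ran -0.24, with -0.59 to 0.10.

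**Figure D3:**
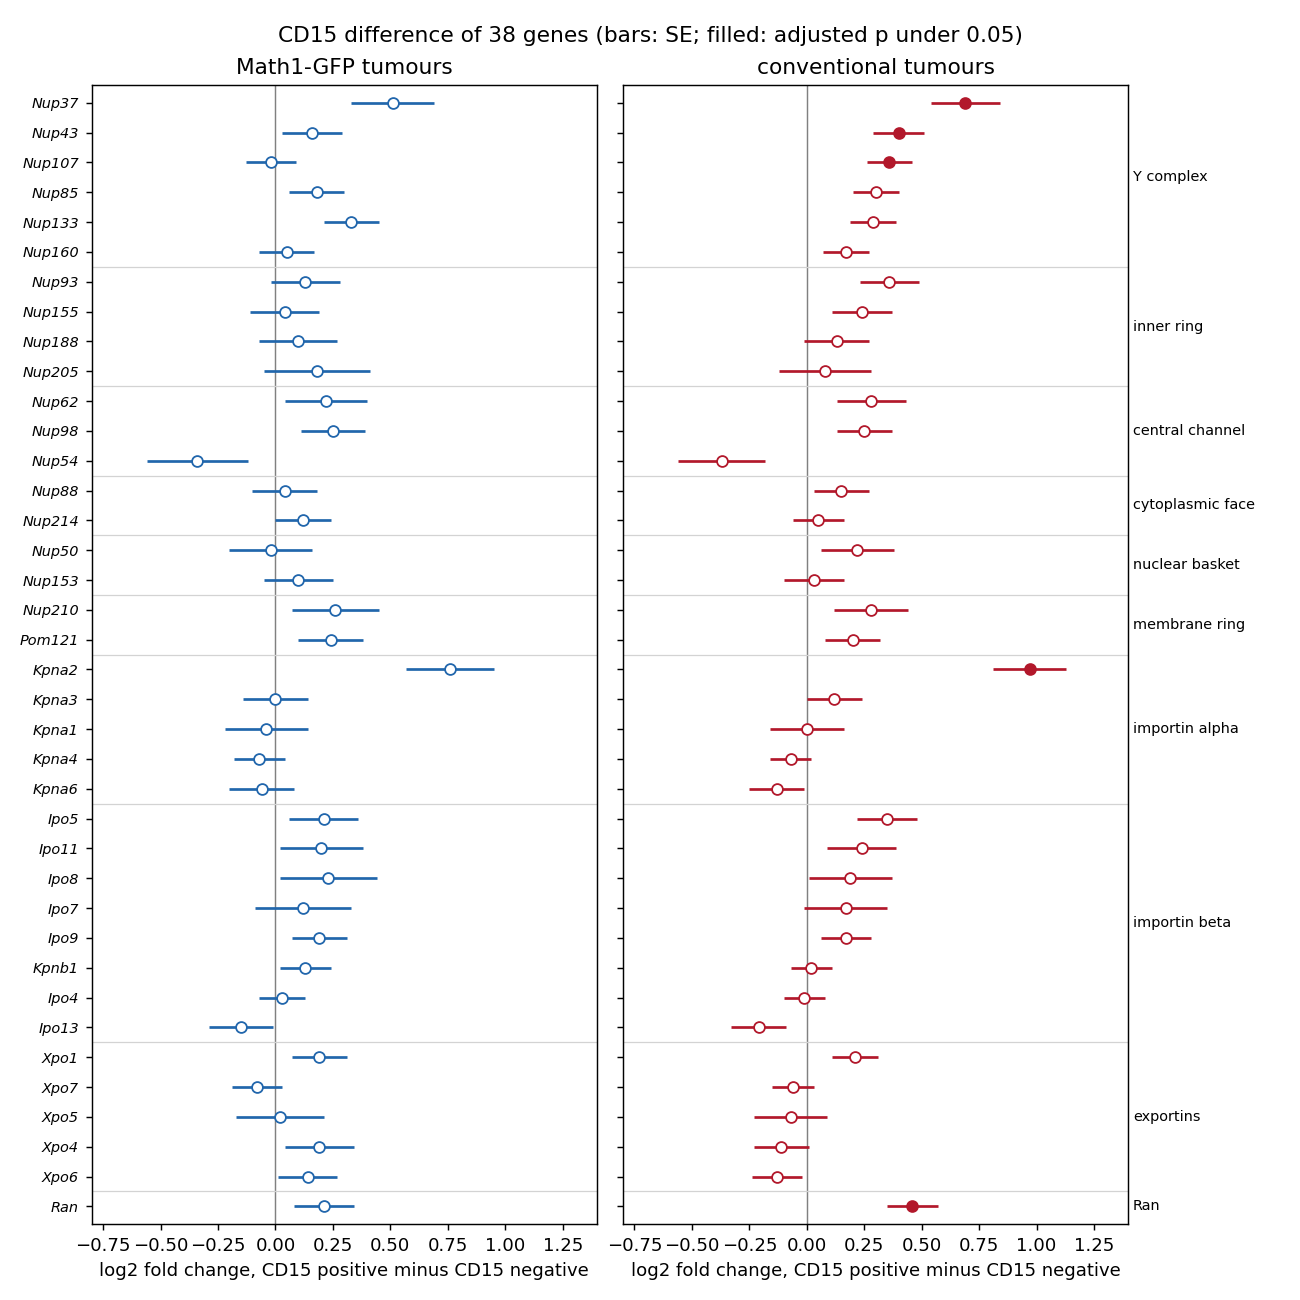
Log2 fold change, CD15 positive minus CD15 negative, of the 38 tested members by role, in Math1-GFP tumours and in conventional tumours; points are fitted differences, bars their SE, and filled points passed an adjusted p of 0.05. Most nucleoporins lie right of 0 in both panels, Kpna2 is farthest right in each, and the 5 filled points are all in conventional tumours.

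Averaged over both kinds of tumour, 5 members were higher in CD15 positive cells and 0 lower, against 3.77% and 5.97% of all genes, or 9.74% either way. At an unadjusted p under 0.05 there were 16 of 38, against 24.5% of all genes. The 5 were Kpna2 at 0.87 ± 0.13 (SE; limma adjusted p = 0.0002), Nup37 at 0.60 ± 0.12 (0.0024), Ran at 0.34 ± 0.08 (0.013), Nup133 at 0.31 ± 0.08 (0.014) and Nup43 at 0.28 ± 0.08 (0.037). The Nup133 call was lost when the probe sets of a gene were averaged (0.16, limma adjusted p = 0.089), the Ran call after quantile normalization (0.17, limma adjusted p = 0.16), and the Nup43 call with the title number as a block (limma adjusted p = 0.051). The Nup43 call was also lost without any 1 of 12 arrays: in Math1-GFP tumours arrays 5, 7 and 9 of the CD15 positive and 2, 4 and 8 of the CD15 negative cells, and in conventional tumours arrays 1 to 4 and arrays 4 and 5 of those fractions (limma adjusted p up to 0.096). Without Math1-GFP CD15 positive array 1 the count of called members became 8, while over all genes 466 higher and 738 lower calls became 497 and 763.

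The pathway beyond these members was followed in a list of 40 other genes, 35 of them measured. In conventional tumours 4 were higher and 1 lower in CD15 positive cells, or 14.3% either way. Of all genes 3.05% were called higher, 5.09% lower and 8.13% either way. Of 2 regulators of Ran that passed, Ranbp1, which helps to release Ran from importins, was higher by 0.56 ± 0.11 (SE; limma adjusted p = 0.0034), and Rangap1, which makes Ran hydrolyse GTP, by 0.42 ± 0.10 (0.012). The exchange factor Rcc1, which loads Ran with GTP, missed the threshold at 0.53 ± 0.17 (0.055) and passed with the number as a block (0.0095); it was named after its values were seen. The mRNA export factors Alyref and Nxt1 were higher by 0.49 ± 0.09 (0.0033) and 0.48 ± 0.12 (0.013), and Alyref lost its call when its probe sets were averaged (0.36). Ranbp6, an importin beta relative, was the 1 lower gene at -0.59 ± 0.17 (0.038), a limma call lost with the number as a block (0.085) and without any 1 of CD15 positive arrays 1 to 3 or CD15 negative arrays 2, 4, 5 and 6. Cse1l, which returns importin alpha to the cytoplasm, differed by 0.42 ± 0.13 in conventional tumours (0.055, and 0.043 with the number as a block) and by 0.38 ± 0.10 in the average over both kinds of tumour (0.02). None of the 35 passed in Math1-GFP tumours.

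Between Math1-GFP and conventional arrays, over both fractions, 39.2% of all genes passed, 18.7% higher and 20.5% lower in Math1-GFP tumours. The fit counted same-numbered conventional arrays as separate, although they deviated from their group means together (r = 0.58 to 0.76). The p-values between models may therefore be too small and the counts of calls too large. Of the members 19 were higher and 4 lower, with a median of 0.24. The Math1-GFP titles carry one suffix and the conventional titles another, so the tumour model and whatever the suffix marks cannot be told apart.

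Most transport receptors were higher in Math1-GFP tumours, at 13 higher and 3 lower of 19 with Ran included. This was 84.2% called either way, against 39.2% of all genes. Xpo1 had 2107, 2367, 2452 and 2207 in CD15 positive and 1836, 1943, 2067, 2258 and 1860 in CD15 negative arrays of Math1-GFP tumours, above every conventional array. Its log2 difference was 0.57 ± 0.08 (SE; limma adjusted p = 1.5e-05), and a second probe set, 1418442_at, gave 0.20 (limma adjusted p = 0.29 over every probe set). Kpnb1 had 1221, 1168, 1366 and 1452 in CD15 positive and 1222, 1146, 1213, 1162 and 1177 in CD15 negative arrays of Math1-GFP tumours, and at 0.28 ± 0.07 it was higher there (SE; limma adjusted p = 0.0047), with overlapping ranges. Ipo9, an importer of histones, was higher by 0.43 ± 0.08 (SE; limma adjusted p = 0.00032). Kpna3, Kpna4 and Xpo4, an exporter of a translation factor, were higher by 0.75, 0.59 and 0.90, with no overlap between the models.

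The adaptor and the GTPase that were high in CD15 positive cells lay the other way here. In Math1-GFP tumours Kpna2 was lower, with a log2 difference of -0.46 ± 0.13 (SE; limma adjusted p = 0.0066), as were Ran at -0.49 ± 0.08 (0.00013) and Nup37 at -0.43 ± 0.12 (0.0069). For Ran this rested on the scaling and the probe set: after quantile normalization the difference was -0.02 (0.88), and probe set 1460551_at gave 0.03 (0.86) where the 4 others gave -0.47 to -0.69. The Kpna2 call was lost after quantile normalization too, at -0.22 (0.18). The other lower member was Ipo4, at -0.30, where its second probe set gave 0.09.

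Of 19 nucleoporins 6 were higher and 1, Nup37, lower in Math1-GFP tumours. This was 36.8% called either way, near the 39.2% of all genes. Nup153, a basket protein that also docks importins, differed most and was singled out after its values were seen. It had 1338, 1086, 1226 and 1447 in CD15 positive and 1508, 991.7, 1231, 1110 and 1138 in CD15 negative arrays of Math1-GFP tumours, while the conventional arrays reached 797.3 at most. The log2 difference was 1.01 ± 0.10 (SE; limma adjusted p = 2.8e-07), while 2 dimmer probe sets of the gene gave 0.66 and -0.22. Nup155 and Nup160 were higher by 0.47 and 0.37, and Nup210 and Nup93 by 0.36 and 0.26 (limma adjusted p of 0.027 and 0.042), the last 2 without a call after quantile normalization (0.056 and 0.052).

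Probe sets of a gene did not all give the same difference between the models. Taken singly, 52 of the 91 member probe sets were higher and 10 lower, or 57.1% and 11%, against 26.8% and 15.8% of all 23211 probe sets. Of 29 members with several probe sets 19 had them all on one side of 0. The 4 Kpnb1 probe sets ranged between 0.26 and 1.28, and the 2 of Nup205 gave 0.95 and 0.12. All 5 probe sets of Kpna1 were higher, by 0.46 to 1.2, while Kpna2 had 1 probe set. Nup62, a channel protein, was called both ways, at 1.39 with probe set 1415926_at and at -0.66 with 1448150_at. Over all genes, 47.7% of the calls were higher in Math1-GFP tumours as reported, 37.0% after quantile normalization and 62.9% with every probe set counted.

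**Figure D4:**
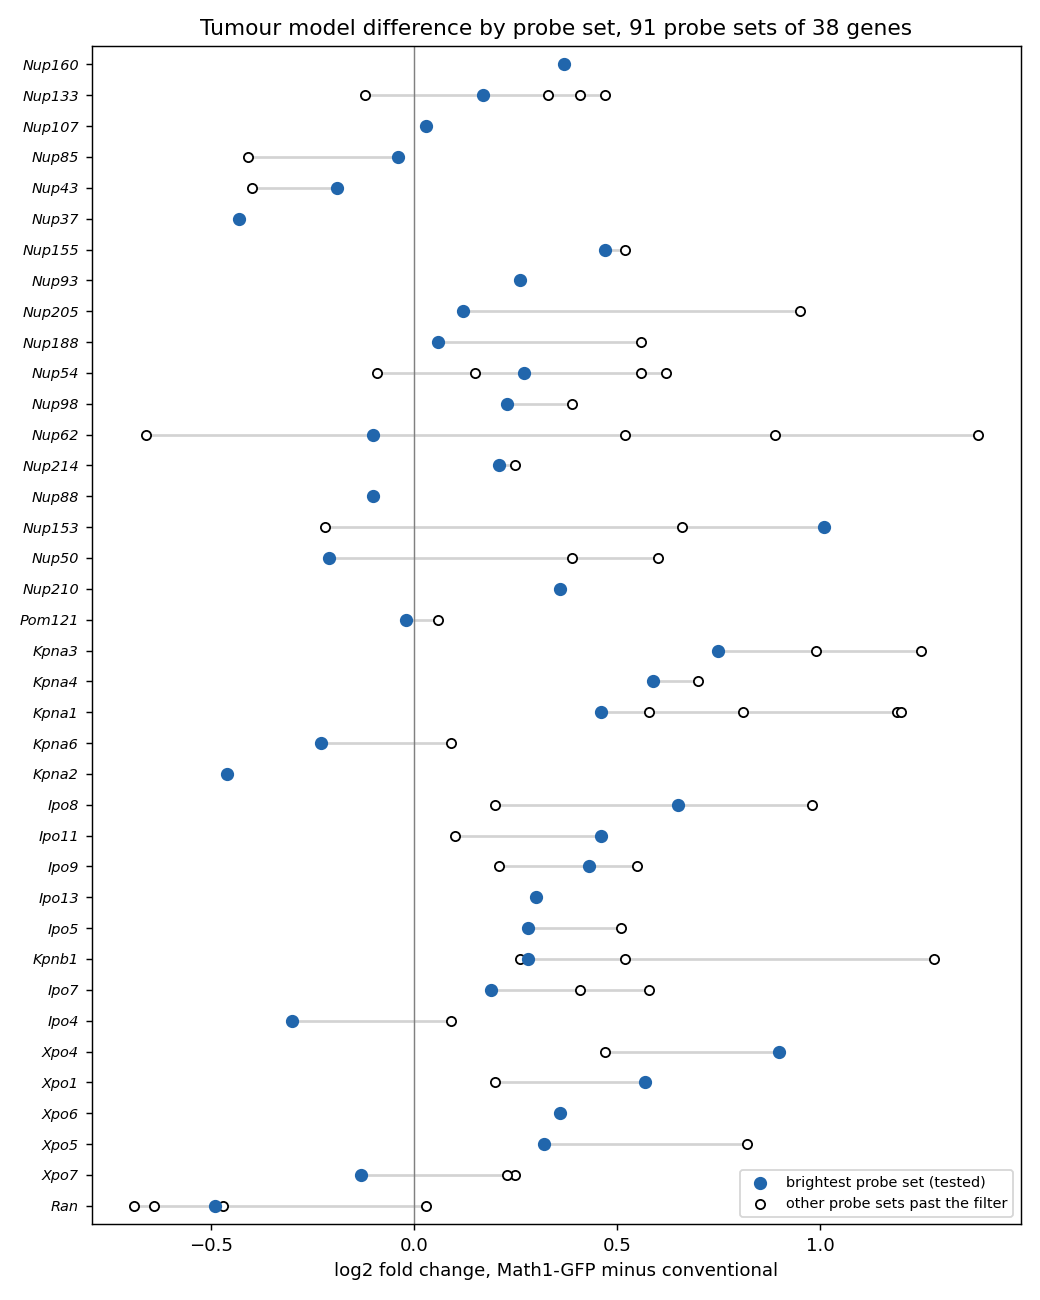
Log2 fold change, Math1-GFP minus conventional, of the 91 probe sets of 38 members; filled points are the brightest probe set, which stands for the gene, and open points the others past the filter. The probe sets of Nup62 lie between -0.66 and 1.39, and those of Ran on both sides of 0.

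Markers of several other cell types moved with the model. All 11 measured microglia and macrophage markers were lower in Math1-GFP tumours, with a median of -1.29. Their summed signal was 489.2 to 2438 in CD15 positive and 318.2 to 797.1 in CD15 negative cells of Math1-GFP tumours, against 986.8 to 14820 and 413.2 to 5024 in the same fractions of conventional tumours. Of 8 mural cell and fibroblast markers all had negative differences, with a median of -0.74, and Lum, Pdgfrb and Col1a1 passed. Of 6 oligodendrocyte lineage markers all had positive differences, with a median of 0.43, and Pdgfra and Mbp passed. Of 8 astrocyte markers 2 were called higher and 1 lower. The markers of granule neuron precursors were present in all groups, with 10 of 11 measured. Their summed signal was 14170 to 33920 over the 21 arrays. In this contrast 7 of the 10 were positive, with a median of 0.20, and Pax6, Barhl2 and Atoh1 were called higher. No erythroid marker of 5 and 1 lymphocyte marker of 5 passed the filter. The part of these cells in the member differences between models was not tested.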

How the data were processed

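The authors deposited 1 linear intensity for each probe set and array. Their summarisation method was not among the labels. Each array's mean, trimmed of 2% at both ends, was 150.0. The deposited intensities were used as log2(signal + 32), which makes fold changes of dim genes smaller. Left out were 64 control probe sets, probe sets of several or no symbols (among them 3 with a member), and those whose mean lay below the 40th percentile. The brightest probe set stood for each gene. A model of 4 group means over 21 arrays (17 residual degrees of freedom) was fitted with limma 3.58.1 in R 4.3.3, with two-sided moderated tests, Benjamini-Hochberg adjustment over 12367 genes and a threshold of 0.05. The scripts were tested on simulated data.

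Same-numbered conventional arrays deviated from their group means together (r = 0.58 to 0.76 in 5 pairs, at most 0.48 between arrays of different number), so the numbers were taken to pair them. The 2 unnumbered arrays, which the block leaves out, had r = 0.72. The members and lists were chosen with earlier results of these data known. Members followed in every setting were those called in any contrast (the 12 of smallest p in the average), Ran, Kpnb1, Kpna2, Xpo1 and Pom121, and the leading member of each role. The number of arrays limits the precision.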

Additional observations from a re-analysis of the deposited data

Results flagged for a closer look

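In 68 groups of arrays of 17 named members, 2 held an array far from the others, where about 1 in 20 would by chance. Nup98 was lowest in Math1-GFP CD15 negative array 8, at 7.82 on the log2(signal + 32) scale, while the others of that group lay between 8.17 and 8.20. Nup88 was lowest in Math1-GFP CD15 negative array 6, at 9.70, while the others lay between 9.86 and 9.89.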

How the results depend on the processing

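The 5 members called in conventional tumours became 3 within arrays 2 to 5 and 0 within the unnumbered arrays and array 6 (limma). Leaving out 1 array gave 3 to 6. With the title number as a replicate block and consecutive Math1-GFP numbers as a block (pairs which no label gives) they became 9. Over all 12367 genes, 377 higher and 629 lower calls became 1225 and 1673 with both blocks, and 219 and 448 within arrays 2 to 5. Within the unnumbered arrays and array 6, at 2 against 2 arrays, they became 0 and 0, so no gene of any kind was called there. Leaving out 1 array gave 204 to 423 higher and 402 to 677 lower calls over all genes. The 0 called in Math1-GFP tumours became 2 with array weights, 1 with the replicate block and 2 with both blocks. Over all genes, 2 higher and 3 lower calls became 77 and 110 with array weights, 72 and 101 with the replicate block and 410 and 516 with both blocks. The 5 of the average became 15 with both blocks, and 4 to 8 without 1 array. Over all genes, 466 higher and 738 lower calls in the average became 1693 and 1980 with both blocks. Without 1 array they became 341 to 497 higher and 580 to 802 lower. The interaction had 0 under every setting that allows it. Of the members, the replicate block changed the calls of Nup43 (conventional tumours and average), Kpna2 (Math1-GFP tumours) and Nup210 (average, limma adjusted p = 0.036 against 0.18). The contrast of the models was not fitted with a block. Under 38 settings 28 member fold changes gave 979 values, of which 897 kept sign and call, 66 lost and 5 gained a call, and 11 turned sign. The last were all near 0: Kpnb1 in conventional tumours was -0.0 with array weights, -0.03 with the replicate block, with both blocks and over the numbered arrays unblocked, -0.07 within arrays 2 to 5, and -0.02 to 0.07 without 1 array; Nup107 in Math1-GFP tumours was 0.01 with array weights and -0.08 to 0.01 without 1 array. The causes were not tested.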
